A study of Mus musculus with 4 samples.

Results

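The secreted and membrane-bound axon guidance ligands and their receptors were described in female mouse neural stem cells with and without Smchd1. The genes were taken from the count table by symbol: semaphorins, plexins, neuropilins, Eph receptors, ephrins, netrins, Unc5 receptors, Slits and Robo receptors. They made 68 of its 25965 entries, 35 ligands and 33 receptors. Of these, 62 had enough counts for a test. Between deleted and control cells of the same lines, 5 rose (8.06%, against 3.71% of all genes tested) and 2 fell (3.23%, against 1.89%). Since the genes were chosen with earlier results of these data known, a share above that of all genes carries no weight. The rises were of Epha5, Sema5a, Efna3, Robo1 and Nrp1, and the falls of Efnb2 and Sema4b. In a fit that ignored the pairing by line, 0 of all genes tested rose and 0 fell.

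Guidance cues steer growing axons and migrating neural cells by binding receptors that act on the actin cytoskeleton. Semaphorins signal through plexins, and most secreted class 3 semaphorins also need a neuropilin as the binding subunit. Ephrins are bound to the membrane, ephrin-A by a lipid anchor and ephrin-B by a transmembrane segment, and they signal between touching cells through EphA and EphB receptor tyrosine kinases. Netrins attract through Dcc and repel through Unc5 receptors, and Slits repel through Robo receptors. In the embryonic brain the same families also act on neural progenitors, where they are known for roles in cell positioning, adhesion and the choice between division and differentiation.

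The cells were neural stem cell lines from E14.5 embryos that carried 1 deleted and 1 conditional Smchd1 allele (Smchd1 del/fl), on a mixed C57BL/6, 129 and Castaneus background. All libraries shared a maternal 129 X with an Xist deltaA allele (Xist 129-KO) and a Castaneus X from the father with wild-type Xist. Each line was divided. One part was given the Cre retrovirus MSCV-Cre-puro, put under puromycin 24 hours later and harvested 7 days after transduction (Smchd1 del/del, "deleted"), and the other part was left untransduced (Smchd1 del/fl, "control"). Deletion therefore cannot be told apart from transduction, Cre and puromycin selection. There were 2 lines, written as A and B, and each gave 1 control and 1 deleted library. Where a pair of values is given for a group, line A comes first. The design text speaks of 3 lines per genotype, and further lines were not analysed here. The labels do not say that a line is a single clone, and p-values over 2 lines cover only the spread of these cultures.

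Total counts ran from 29873400 to 34018500 per library. Smchd1 itself had 2779 and 3461 counts in control A and B and 785 and 852 in deleted A and B (log2 fold change −1.96, SE 0.07, edgeR adjusted p = 0.0194). Of 10 neural stem cell markers, all were detected in every library, and Nes ran from 901 to 1663 CPM (counts scaled by library size). The astrocyte markers moved with the deletion. Among 7 of 8 that were tested, 5 rose (Gfap, Aqp4, S100b, Aldh1l1 and Gja1), or 71.4% against 3.71% of all genes tested. The summed level of the list was 395 to 414 CPM under control against 711 to 809 after deletion, with Gjb6 at 0 counts in 3 libraries. The summed neuron markers, mostly Gap43 and Syt1, were at 490 and 362 CPM under control against 496 and 262 after deletion. Of 9 tested, 1 rose (Elavl3) and 1 fell (Syt1), 11.1% each (background 3.71% higher and 1.89% lower). Their log2 values were positive for 5 and negative for 4. Differences of both lists from the background were not tested, and the lists were chosen with earlier results of these data known. No member was called in the oligodendrocyte (6 of 8 tested), microglial (2 of 6), endothelial and mural (3 of 7) or mesenchymal (2 of 7) lists. Cdh5, Cx3cr1, Tmem119, Dcn and Lum were at 0 in every library. Others were detected, with Olig1 at 1578 to 1866 CPM, Pdgfra at 9.39 to 53.9 and Csf1r at 7.85 to 8.92. Among the 6 tested oligodendrocyte markers 5 log2 values were positive and 1 was negative. The part of these markers in the results below was not tested. In bulk RNA, fewer cells that express a gene and less RNA per cell cannot be told apart.

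Plexin-B2 stood out among the receptors by its level. Levels are compared between genes as CPM per kb of annotated exon, a scale that corrects for gene length. Plxnb2, a receptor for class 4 semaphorins, had a control mean of 76.2 CPM per kb and a deleted mean of 78.0. Next among receptors were Plxna1 at 35.9 and 29.7 CPM per kb and Plxnb1 at 19.2 in both groups. The most abundant ligands in controls were Sema6d, a transmembrane ligand of plexin-A receptors, at 40.1 CPM per kb, Ntn4, a netrin of basement membranes, at 32.8, and Ntn1 at 26.2. In the other families the highest control means were those of Efna4 (12.9 CPM per kb), Efnb1 (12.8), Ephb3 (6.91), Unc5b (5.53), Robo2 (4.82), Nrp1 (4.61), Epha2 (4.55) and Slit1 (1.35). By group means Robo1 was below Robo2 in controls (3.68 and 4.82 CPM per kb) and above it in deleted libraries (5.76 and 4.28). Within each line, however, their order was the same in both libraries, and it differed between the lines. In line A Robo1 was above Robo2 in the control (4.97 and 3.80 CPM per kb) and in the deleted library (7.92 and 3.57). In line B it was below, at 2.39 and 5.85 in the control and 3.60 and 4.995 in the deleted library. Across the 62 tested genes the scale covered more than 3 powers of 10 in controls, with Slit2 lowest at 0.0637 CPM per kb. The 6 genes left untested were Epha6, Epha8, Epha10, Ntn5, Slit3 and Sema3g, each with at most 12 counts in any library.

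**Figure D1:**
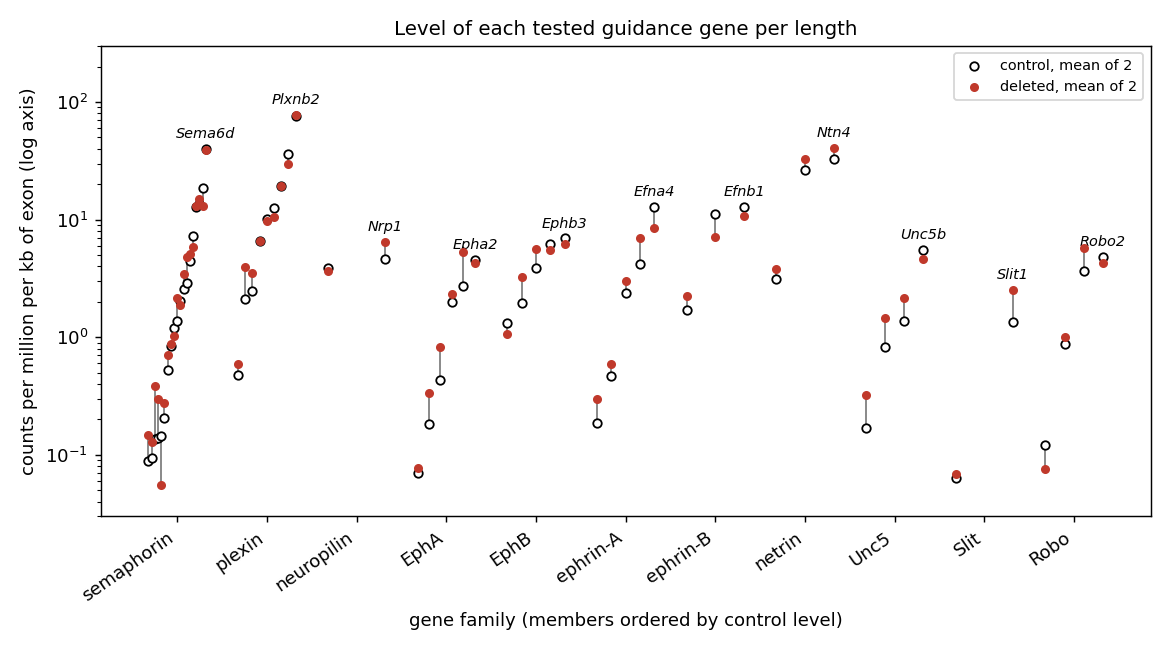
Level of each of the 62 tested guidance genes, in CPM per kb of exon on a log axis, by family. Open points are the mean of the 2 control libraries and filled points the mean of the 2 deleted libraries of 1 gene, joined by a line, and the gene with the highest control mean of each family is named. Plxnb2 is highest at 76.2 and 78.0.

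Of the 62 tested genes, 7 were called (11.3%) at an edgeR adjusted p under 0.05 with line as a block, against 5.60% of all 14860 genes tested. The 5 rises made 8.06% (background 3.71%) and the 2 falls 3.23% (background 1.89%). The difference from the background was not tested. Because the genes were chosen with earlier results known, a share above the background carries no weight, here or for the families below. The median log2 fold change was 0.21 over the 62 genes and 0.01 over all genes. Positive values were found for 41 of 62 (66.1%) against 51.7% of all genes, and 21 were negative. Both deleted libraries lay above both controls for 17 genes (27.4%, background 22.9%) and below them for 10 (16.1%, background 22.8%). Ligands had a median of 0.31 over 32 tested and receptors one of 0.17 over 30. Without the block for line no member was called (unadjusted p under 0.05: 6 higher and 2 lower). DESeq2 with the block called 9 higher and 2 lower, all 7 above among them. Without the filter on low counts edgeR called 13 higher and 3 lower. Calls over all genes went the same way, from 551 higher and 281 lower to 0 and 0 without the block. DESeq2 called 756 and 439 over all genes, and edgeR without the filter 1131 and 671.

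**Figure D2:**
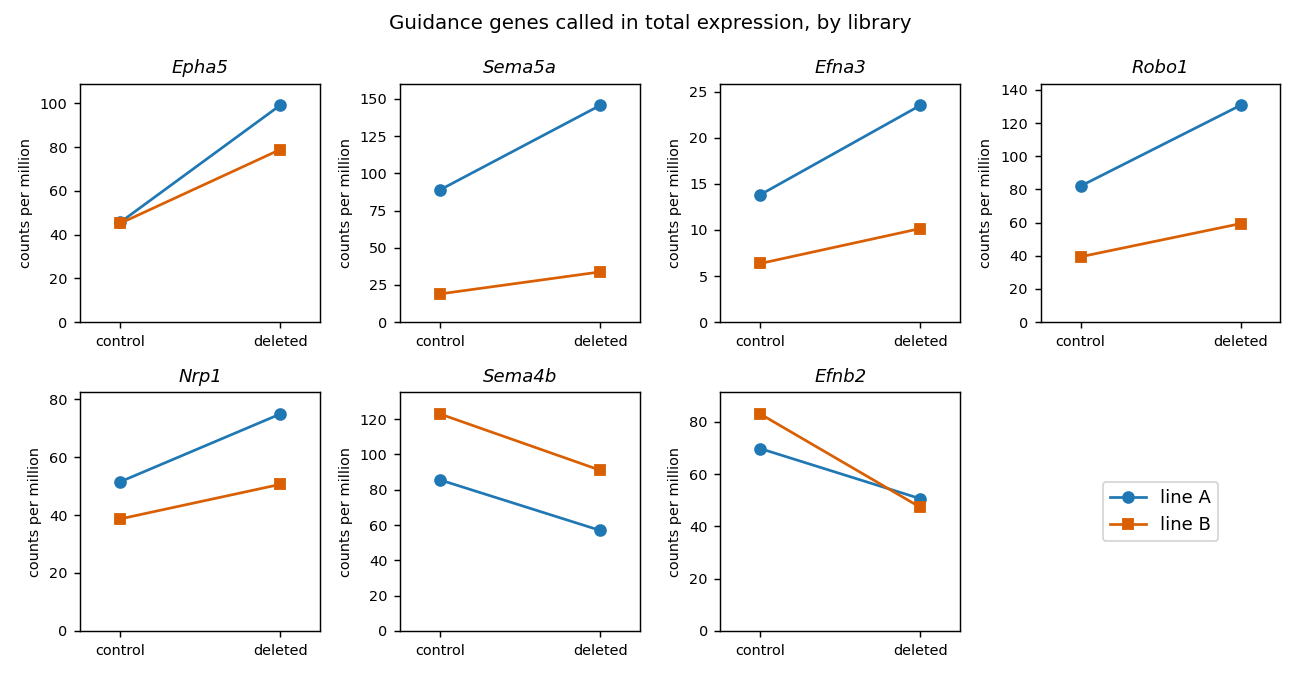
CPM of the 7 called guidance genes in the 4 libraries, with control and deleted libraries of a line joined. In every panel both lines move the same way, and for Sema5a, Efna3, Robo1, Nrp1 and Sema4b the lines stand so far apart that the groups overlap.

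Epha5 and Efnb2 carried the clearest changes in the Eph and ephrin families. Epha5 (chromosome 5, 84057791 to 84417382, mm10), a receptor of ephrin-A ligands known from topographic axon mapping, was at 45.6 and 45.1 CPM in control A and B and at 99.1 and 78.9 in deleted A and B. Both deleted libraries lay above both controls, the log2 fold change was 0.96 (SE 0.10, edgeR adjusted p = 0.0226), with 1.12 for line A and 0.81 for line B. Efnb2 (chromosome 8, 8617434 to 8660773), the transmembrane ligand of EphB receptors and of Epha4, was at 69.8 and 83.0 CPM under control against 50.6 and 47.3 after deletion. It fell by 0.64 (SE 0.10, edgeR adjusted p = 0.0432), by 0.46 in line A and by 0.81 in line B on the log2 scale, with no overlap of the groups.

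Efna3 (chromosome 3, 89313899 to 89322965), a ligand with a lipid anchor that binds EphA receptors, was the other called gene here. It had 13.8 and 6.37 CPM in control A and B and 23.5 and 10.2 in deleted A and B, so the groups overlapped while each line rose (0.77 and 0.67). Its log2 fold change was 0.72 (SE 0.12, edgeR adjusted p = 0.0467). An entry on the opposite strand, Gm15998, overlaps Efna3 and had up to 216 counts in a library, and since the use of strand in counting is not given, reads of both cannot be told apart. Efna3, Efna4 and Efna1 lie in 1 stretch of chromosome 3 (89271733 to 89338028, mm10). Efna4 was at 24.1 and 17.0 CPM under control against 14.8 and 12.3 after deletion. Its log2 value was −0.59 (SE 0.12), not called with the filter (edgeR adjusted p = 0.0628) but called lower without it (edgeR adjusted p = 0.0353). Efna3 and Efna4 thus had values of opposite sign. Efna1 had 33 and 20 counts under control against 48 and 23 after deletion (0.33, not called).

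Among the other EphA genes, Epha7 had 119 and 157 counts under control against 327 and 214 after deletion (log2 0.91, edgeR adjusted p = 0.0846). Epha3 had 45 and 56 against 123 and 70 (0.85, edgeR adjusted p = 0.141). For both genes the deleted libraries lay above the controls, but neither was called by edgeR with the block and the filter. Epha7 was called higher by edgeR without the filter. Epha4 (0.24), Epha2 (−0.13) and the barely detected Epha1 (0.16) were not called either. Epha1, with 5 to 13 counts, overlaps Zyx on the other strand, which had up to 2362, and is uncertain. The EphA family thus had 5 positive values among 6 tested (83.3%, against 51.7% of all genes) and 1 call (16.7%, against 5.60%). These differences were not tested. In the EphB family none of 5 was called by edgeR with the block and the filter, while Ephb1 was called higher by DESeq2 with the block and by edgeR without the filter. The log2 values of Ephb1 (0.57) and Ephb6 (0.73) were positive, and those of Ephb2 (−0.31), Ephb3 (−0.17) and Ephb4 (−0.16) negative. Ephb6, which lacks kinase activity, had 168 and 496 counts in control and deleted A but 310 in both libraries of line B. Efnb1 (−0.25) and Efnb3 (0.42) were not called, nor were Efna2 (0.32) and Efna5 (0.65).

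In the semaphorins 1 gene rose and 1 fell among 19 tested (5.26% each, background 3.71% higher and 1.89% lower). Sema5a (chromosome 15, 32244813 to 32696341), a transmembrane semaphorin with thrombospondin repeats, was at 89.0 and 19.0 CPM in control A and B and at 146 and 33.8 in deleted A and B. The lines differed by 4.69-fold in controls, more than the groups, so that control A lay above deleted B. Within lines Sema5a rose by 0.71 and 0.83 (log2 fold change 0.77, SE 0.07, edgeR adjusted p = 0.0217). Sema4b (chromosome 7, 80186841 to 80226394), a transmembrane class 4 semaphorin, was at 85.5 and 123 CPM under control against 56.9 and 91.1 after deletion. It fell by 0.51 (SE 0.07, edgeR adjusted p = 0.0365), and by 0.59 and 0.43 in the lines, although the groups overlapped.

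The largest positive value of a semaphorin was that of Sema3b, a secreted class 3 member. It had 22 and 19 counts under control against 77 and 44 after deletion, with no overlap. The log2 value of 1.47 (SE 0.29) was not called with the filter (edgeR adjusted p = 0.0565) but was called without it (edgeR adjusted p = 0.0368). Sema3f, beside it on chromosome 9, had 28 and 17 counts against 81 and 21 (0.97, not called). Sema3e had the most negative value, −1.29 (SE 0.51, edgeR adjusted p = 0.170), which came mainly from line B, with 63 counts in the control and 13 in the deleted library against 24 and 21 in line A. The other class 3 genes were Sema3a (0.19), Sema3c (−0.28) and Sema3d (0.41). Sema4g (0.43) and Sema4c (−0.30) were the nearest to a call in class 4, and Sema4a, Sema4d and Sema4f had values of 0.39 to 0.70. Sema4g was called higher by edgeR without the filter. The abundant Sema6d (−0.04), Sema6a (0.13) and Sema5b (0.03) had small values, with SEs of 0.07 to 0.11. Sema6b (0.57), Sema6c (−0.19) and Sema7a (0.06), which binds plexin-C1, were not called.

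Of the semaphorin receptors, Nrp1 was called and no plexin was. Nrp1 (chromosome 8, 128359073 to 128505462), the subunit that binds Sema3a, was at 51.5 and 38.7 CPM in control A and B and at 74.9 and 50.6 in deleted A and B. It rose by 0.54 and 0.39 within the lines (pooled log2 0.47, SE 0.08, edgeR adjusted p = 0.0443), while control A lay just above deleted B. Nrp2, which favours Sema3f, was at 42.7 to 48.4 CPM in all libraries (−0.08, SE 0.09). Plxnc1, the receptor of Sema7a, was at 12.2 and 22.8 CPM under control against 30.0 and 35.4 after deletion. Its groups did not overlap, but the log2 value of 0.96 (SE 0.18) missed the threshold (edgeR adjusted p = 0.0541). Plxnc1 was called by DESeq2 with the block and by edgeR without the filter. Values of the plexin-A genes were −0.28 (Plxna1), −0.25 (Plxna2), −0.07 (Plxna3) and 0.18 (Plxna4). Plxnb1 (0.00), Plxnb2 (0.03) and Plxnd1 (0.02) had values near 0, with SEs of 0.08 to 0.14.

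No netrin and no Unc5 receptor was called by edgeR with the block and the filter. Of 7 tested, 6 had a positive value (85.7%), against 66.1% of all guidance genes tested and 51.7% of all genes. This difference was not tested. Unc5d was called by DESeq2 with the block (adjusted p = 0.0200), and Ntn1 and Unc5c by edgeR without the filter. Ntn1, the classical long-range netrin, was at 207 and 122 CPM in control A and B and at 250 and 160 in deleted A and B (log2 0.33, SE 0.07, edgeR adjusted p = 0.0633). Ntn4 was at 140 and 106 CPM against 192 and 112 (0.27, SE 0.11) and Ntn3 at 17.7 and 14.2 against 21.3 and 17.9 (0.30). The Ntn3 entry overlaps Tbc1d24 on the same strand and BC028777 on the other, which together had up to 2146 counts in a library, so its level is uncertain. Unc5c had 92 and 116 counts under control against 219 and 182 after deletion, without overlap (0.91, SE 0.20, edgeR adjusted p = 0.0658). Unc5d, a receptor of netrins and of Flrt proteins, had 362 and 102 counts against 594 and 290. Its log2 value was 1.02 (SE 0.28, edgeR adjusted p = 0.0907), with 0.54 in line A and 1.60 in line B. Unc5a (0.66) and Unc5b (−0.25), the most abundant of them per length, were not called.

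Robo1 rose, while the other Robo genes and the Slits were not called. Robo1 (chromosome 16, 72663149 to 73046095), a receptor of Slit ligands, was at 82.0 and 39.4 CPM in control A and B and at 131 and 59.4 in deleted A and B. The groups overlapped, since the lines differed by 2.08-fold in controls, but each line rose (0.67 and 0.59), and the log2 fold change was 0.63 (SE 0.07, edgeR adjusted p = 0.0230). Robo2, which lies on the same chromosome, was at 64.5 and 99.3 CPM against 60.6 and 84.8 (−0.16, SE 0.07, not called). Slit1, the most abundant Slit, had 368 and 122 counts under control against 675 and 309 after deletion. Its value was 1.04 (SE 0.21, edgeR adjusted p = 0.0604), and it was called by DESeq2 with the block and by edgeR without the filter. Slit2 had 30 to 76 counts per library (0.17), and Robo3 (0.18) and the endothelial Robo4 (−0.69) were low and not called.

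The sequences just upstream of 4 called genes, the rises with the lowest adjusted p and both falls, are given to show the kind of start region these genes have. Each is the 250 bases before the RefSeq start (GRCm38.p6, the build of mm10), 5′ to 3′ on the gene's strand, with GC boxes (GGGCGG or, on the other strand, CCGCCC) in capitals. They are from chr15:32244563-32244812 (Sema5a, plus strand), chr5:84417383-84417632 (Epha5, minus strand), chr8:8661243-8661492 (Efnb2, minus strand) and chr7:80186620-80186869 (Sema4b, plus strand). The Efnb2 start is 469 bases from the 5′ end of the gene in the count table and the Sema4b start 29 bases.
Sema5a: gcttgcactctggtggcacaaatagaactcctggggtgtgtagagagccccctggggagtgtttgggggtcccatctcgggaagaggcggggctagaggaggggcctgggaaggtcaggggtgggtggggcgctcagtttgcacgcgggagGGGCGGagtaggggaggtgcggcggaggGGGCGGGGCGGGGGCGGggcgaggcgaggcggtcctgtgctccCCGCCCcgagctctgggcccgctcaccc
Epha5: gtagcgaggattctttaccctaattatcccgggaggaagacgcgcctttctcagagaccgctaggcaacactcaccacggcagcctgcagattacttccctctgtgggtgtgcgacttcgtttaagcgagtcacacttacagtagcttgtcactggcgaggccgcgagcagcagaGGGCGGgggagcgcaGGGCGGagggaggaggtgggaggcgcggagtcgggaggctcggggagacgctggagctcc
Efnb2: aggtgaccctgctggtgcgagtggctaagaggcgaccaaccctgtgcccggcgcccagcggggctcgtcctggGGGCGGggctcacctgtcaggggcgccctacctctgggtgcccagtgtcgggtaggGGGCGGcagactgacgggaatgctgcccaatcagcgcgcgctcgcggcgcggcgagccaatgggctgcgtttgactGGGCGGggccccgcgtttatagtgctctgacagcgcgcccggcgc
Sema4b: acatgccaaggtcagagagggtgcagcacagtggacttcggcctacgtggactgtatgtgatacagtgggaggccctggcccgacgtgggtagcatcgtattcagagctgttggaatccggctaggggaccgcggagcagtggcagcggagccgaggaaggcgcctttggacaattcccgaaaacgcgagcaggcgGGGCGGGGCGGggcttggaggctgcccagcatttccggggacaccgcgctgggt

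These regions are rich in CG dinucleotides, with 17 in Sema5a, 20 in Epha5, 27 in Efnb2 and 20 in Sema4b, against a median of 6 over all 32851 RefSeq windows of the same length. Sema5a had 5 GC boxes, overlapping ones counted, Efnb2 3, and Epha5 and Sema4b 2 each. Windows were matched for 59 of the 68 guidance genes. Of these 43 (72.9%) held a GC box and the median was 16 CG dinucleotides, while 32.7% of all windows held one. A GC box was found in 6 of the 7 called genes, Robo1 being the exception, and in 32 of 46 matched genes that were not called (69.6%). A TATAAA match on either strand was present in 1 called gene, Efnb2 (12.4% of all windows), and a CACGTG match in none (6.02% of all windows). A match is a run of letters and was not read as a binding site.

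The lines were compared because same-numbered libraries are parts of 1 line. Of the 62 tested genes, 34 had a higher and 17 a lower level in the deleted library of both lines, and 11 had opposite signs. These were 54.8% higher and 27.4% lower in both lines, against 38.0% and 36.4% of all genes tested. Their median log2 value was 0.30 for line A and 0.19 for line B, against 0.02 and 0.00 over all genes. The larger values in line A included Ephb6 (1.39, against 0.09 in line B), Sema3f (1.36 and 0.40), Plxnc1 (1.30 and 0.64), Epha7 (1.29 and 0.54) and Epha3 (1.28 and 0.41). Line B had the larger values for Unc5d (0.54 in line A, 1.60 in line B), Slit1 (0.70 and 1.43) and Ephb1 (0.32 and 0.81). With 1 library pair per line, a difference between lines could not be tested.

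**Figure D3:**
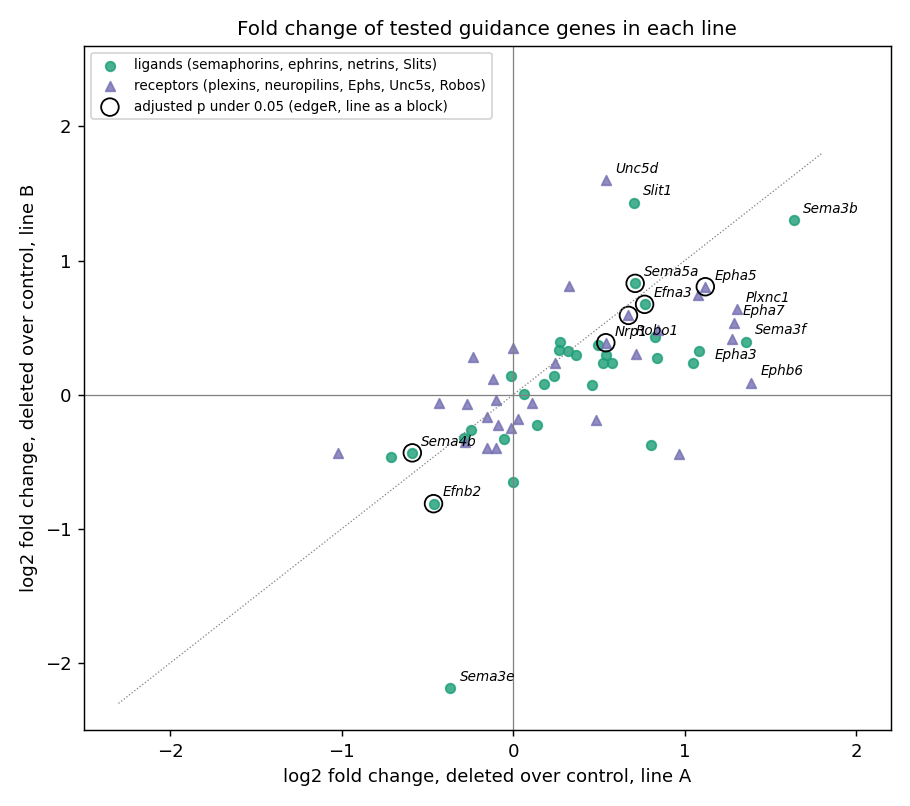
Log2 fold change of the 62 tested guidance genes, deleted over control, in line A (horizontal) and line B (vertical). Each point is 1 gene, circles are ligands and triangles receptors, ringed points are the 7 called genes, and the dotted line marks equal change. Each of the 7 called genes lies on the same side of 0 in both lines, while Sema3e, Unc5d and Ephb6 lie far from the dotted line.

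Differences between the lines were often as large as those between the groups. In 36 of the 62 genes the log2 ratio of control A to control B was larger in size than the log2 fold change of deletion. Neither this count nor that of the 2-fold differences below was made over all genes. Over all 14860 genes tested, principal component 1 (58.1%) separated the lines. Control A was at least 2-fold above control B for Sema5a (4.69-fold), Unc5d (4.07), Sema3c (3.88), Slit1 (3.46), Efna3 (2.17), Robo1 (2.08) and Plxna4 (2.08). Control B was at least 2-fold above control A for Sema4a (4.07-fold), Sema3e (2.29), Epha1 (2.27) and Slit2 (2.21), all at 76 counts or fewer in every library. For 8 of these 11 genes the deleted libraries differed in the same direction. These are single libraries of each line, with no test.

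Of the guidance genes 3 are X-linked, and none was called. Efnb1, an ephrin-B ligand (chromosome X, 99136130 to 99148991, mm10), stood at 43.9 and 44.4 CPM under control against 37.0 and 36.9 after deletion. The groups did not overlap, but the log2 value of −0.25 (SE 0.08) missed the threshold (edgeR adjusted p = 0.104). Plxna3, a partner of neuropilins in class 3 semaphorin signalling (74329066 to 74344689), stood at 77.4 and 83.4 CPM against 72.2 and 81.0 (log2 −0.07, SE 0.07, edgeR adjusted p = 0.503). Plxnb3, a receptor of Sema5a (73757090 to 73772514), stood at 15.5 and 16.4 CPM against 25.5 and 20.3. Both deleted libraries were above both controls, with a log2 value of 0.51 (SE 0.14, edgeR adjusted p = 0.0919). These are levels of the gene as a whole, and reads of the active and the inactive X were not separated here.

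Other genes of these pathways were taken from 2 lists. Both were chosen with earlier results of these data known, so a share above the background carries no weight. Of 25 other receptors, co-receptors and cues, 23 were tested, and 3 rose (13.0%, background 3.71%) and 3 fell (13.0%, background 1.89%), with a median log2 value of 0.20. The difference from the background was not tested. Ngfr, the neurotrophin receptor that also serves myelin inhibitors, had 19 and 12 counts under control against 168 and 64 after deletion (2.76, SE 0.29, edgeR adjusted p = 0.0227). Dscam, a netrin receptor, had 462 and 608 counts against 887 and 1082 (0.85), and the adhesion molecule gene Chl1, a partner of Nrp1, had 4483 and 4898 against 10082 and 6983 (0.80). Met, the hepatocyte growth factor receptor that associates with plexin-B receptors, had 813 and 659 counts against 253 and 76 and fell by 2.37. Cdon, a hedgehog co-receptor gene, fell by 1.10, and Rtn4, which encodes the Nogo proteins, by 0.64. For each of these 6 genes the groups did not overlap.

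Of 50 genes for intracellular effectors 49 were tested, and 1 rose (2.04%, background 3.71%) and 4 fell (8.16%, background 1.89%), with a median of −0.05. Among the falls were 3 of the collapsin response mediator family, which act downstream of semaphorins on microtubules: Crmp1 with 2677 and 2400 counts under control against 1630 and 1422 after deletion (fell by 0.78, SE 0.08, edgeR adjusted p = 0.0231), Dpysl5 (fell by 0.70) and Dpysl2 (fell by 0.55). The other 2 of this family, Dpysl3 (0.08) and Dpysl4 (0.17), were not called. Sipa1l1, a GTPase-activating protein for Rap, fell by 0.78. Chn2, a GTPase-activating protein for Rac of the chimaerin family, had 1953 and 1922 counts against 3993 and 3083 and rose by 0.82 (SE 0.07, edgeR adjusted p = 0.0195). Of these 49 values 35 were negative (71.4%), against 21 of 62 among the ligands and receptors (33.9%) and 48.3% of all genes, and these differences were not tested.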

How the data were processed

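Total RNA-seq counts of 4 libraries were analysed. The authors deposited unnormalized counts, as whole numbers per gene. Per the submitters' processing notes, mm10 was the build and bcl2fastq, TopHat2 2.0.12 and edgeR were among the tools. The counting program and its use of strand are not given in the sources. Group and line came from column names, whose line numbers are not in the sample titles. A further 8 columns of per-library values, reads split by parental genome, could not be tied to single samples and were not used, so the allele comparisons that had been planned were not run.

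All genes were tested with edgeR 4.0.16 in R 4.3.3: quasi-likelihood test, TMM normalization, filterByExpr, Benjamini-Hochberg adjusted p under 0.05, and line as a block, which leaves 1 residual degree of freedom. Per the labels, each line was divided into its control and deleted part, which pairs the libraries. Same-line deviations from group means had r = 0.72 over 14860 genes (genes are no replicates), and principal component 1 (58.1%) separated the lines. Chi-square per degree of freedom was 38.1 between the controls and 61.4 between the deleted libraries, above sampling noise. An SE is the size of the log2 fold change over the root of F. CPM uses TMM-scaled library sizes. Exon lengths are unions of GENCODE M21 exons, where all 68 genes lay at an overlapping place, and promoters are from RefSeq. Alternatives were no block, no filter, RLE size factors, DESeq2 1.42.0 and each library left out.

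Called, X-linked and most abundant genes of each family, and uncalled ones past a log2 value of 1, were to be described in full, and called ones of the other guidance genes named. Members and lists were chosen with earlier results of these data known.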

Additional observations from a re-analysis of the deposited data

How the results depend on the processing

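The direction of every gene described in full was kept without the filter, with RLE size factors, with DESeq2 and without the block, but the number of calls was not. Without the replicate block, which ignores the pairing by line, edgeR called 0 guidance genes higher and 0 lower, where the block gave 5 and 2. At an unadjusted p under 0.05 these were 6 and 2. Over all genes the fit without the block also called 0 higher and 0 lower. Without the filter on low counts 13 were called higher and with DESeq2 9, each time with the 7 genes called with the block among the calls. RLE size factors gave the same 7. The cause of these differences was not tested. With a library left out the block leaves no residual degree of freedom, so these fits had no block, assumed that a lone library varies like the other group, and set different lines against each other. These fits, with a lone library in a group, were read for effect size only. Their log2 values changed sign for Sema5a (−0.68 to 2.24), Robo1 (−0.0333 to 1.27), Ntn4 (−0.14 to 0.62), Epha2 (−0.66 to 0.30), Sema6d (−0.18 to 0.0949), Plxnb2 (−0.11 to 0.14) and Plxna3 (−0.18 to 0.00883). The negative values of Sema5a and Robo1 came without deleted A.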
